A study of Rattus norvegicus with 20 samples.

Results

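The growth arrest and DNA damage inducible genes Gadd45a, Gadd45b and Gadd45g, together with Gadd45gip1, were examined in gastrocnemius muscle of tumour-bearing rats. The family was selected on measured values, because Gadd45g was higher in both chemotherapy arms than in animals with a tumour alone, so the Gadd45g differences against those animals are given below as a description without a test. Its members were the 4 rows, of 32495 rows with a gene name, whose symbol was one of these names. All 4 passed the filter on low counts, as did 11716 rows in total.

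The animals were female Fischer 344 rats bearing the Ward colorectal carcinoma, a transplanted rat tumour, so that every group compared here bore a tumour and none was healthy. TUMOUR STD animals ate a standard semi-purified diet and received no chemotherapy (5 libraries). CHEMO STD animals ate the same diet and received 2 cycles of CPT-11 (irinotecan, a topoisomerase I inhibitor) with 5-fluorouracil (an antimetabolite of thymidine synthesis) (7 libraries), and CHEMO FO animals received the same drugs and a diet with fish oil, rich in eicosapentaenoic and docosahexaenoic acids, from the start of chemotherapy (8 libraries). CHEMO STD replicates 1 and 2 were far more alike than any other pair (chi-square per gene 2.23, above what counting noise alone would give, where 58 further within-group pairs gave 13.7 to 255) and were summed and counted as 1 sample, leaving 6 CHEMO STD samples. Their library names share a stem that no other library carries. On the same measure both lay at 92.0 to 122 from CHEMO STD replicates 3 to 6 and at 53.3 to 53.4 from replicate 7. Replicates 3 to 6 lay at 13.7 to 34.7 from each other.

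Gadd45 proteins are small acidic proteins with no known enzyme activity that act by binding others. They bind the kinase Map3k4 and thereby feed the p38 and JNK stress kinases, bind the replication clamp Pcna and the cell cycle inhibitor Cdkn1a, and take part in DNA repair and demethylation. Gadd45a is induced by DNA damage and, in skeletal muscle, by fasting and denervation, Gadd45b by growth factors and inflammatory signals, and Gadd45g was first described as a cytokine-response gene. Gadd45gip1, also called CRIF1, shares the name because it binds Gadd45 proteins, but it is no paralogue: it is a protein of the large subunit of the mitochondrial ribosome.

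The regions just before the transcription starts are printed here because the letters of known factor sites in them differ between the 3 paralogues. Each run below is the 250 bases before the start, read 5′ to 3′ on the strand of the gene, from RefSeq on the rat assembly GRCr8, matched by gene symbol. The reads themselves were aligned to an older assembly. The capitals mark CCAAT boxes and, in Gadd45g, a C/EBP-ATF site. Gadd45a lies on the minus strand at chr4:97486800-97487049, Gadd45b on the minus strand at chr7:9430719-9430968 and Gadd45g on the minus strand at chr17:13530352-13530601.
Gadd45a: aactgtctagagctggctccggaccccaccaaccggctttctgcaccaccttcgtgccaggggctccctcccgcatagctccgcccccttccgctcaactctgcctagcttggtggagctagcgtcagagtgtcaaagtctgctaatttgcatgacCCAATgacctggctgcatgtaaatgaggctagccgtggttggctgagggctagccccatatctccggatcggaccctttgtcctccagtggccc
Gadd45b: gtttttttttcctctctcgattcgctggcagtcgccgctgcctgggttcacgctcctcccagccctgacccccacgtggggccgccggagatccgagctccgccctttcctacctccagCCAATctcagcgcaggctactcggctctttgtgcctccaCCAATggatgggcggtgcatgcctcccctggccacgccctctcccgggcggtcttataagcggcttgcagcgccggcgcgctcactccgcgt
Gadd45g: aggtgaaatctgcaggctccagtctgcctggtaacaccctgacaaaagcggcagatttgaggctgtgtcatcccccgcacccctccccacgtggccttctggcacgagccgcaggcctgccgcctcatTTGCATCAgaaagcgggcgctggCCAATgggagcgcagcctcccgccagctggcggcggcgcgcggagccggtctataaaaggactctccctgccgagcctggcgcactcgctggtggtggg

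Of the 3 regions, Gadd45g alone held the C/EBP-ATF letters TGATGCAA, which stood on its reverse strand from 122 to 115 bases before the start. These letters were found on either strand in 0.656% of 27457 regions of the same length. CCAAT, the site of the factor NF-Y, was present in all 3, as it was in 34.3% of regions, 94 bases before the start in Gadd45a, 131 and 92 in Gadd45b, and 99 in Gadd45g. The E-box CANNTG occurred 3 times in Gadd45g, 1 time in Gadd45b and not in Gadd45a (65.2% of regions held it), and the GC box GGGCGG 3 times in Gadd45b, 1 time in Gadd45a and not in Gadd45g (32.4%). None of the 3 regions held the STAT letters TTCNNNGAA (7.52% of regions), the cAMP response element TGACGTCA (1.70%), the AP-1 letters TGANTCA (6.36%), the NF-kB letters GGGANTTCC (1.51%) or the CArG box of the serum response factor (1.501%). All motifs were searched on both strands, and these matches describe the letters alone. Gadd45gip1 had no entry in the table of promoters used.

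Depth, as counts on named genes, was 5422118 to 10857477 in TUMOUR STD, 3020821 to 10516783 in CHEMO STD and 3035841 to 9119394 in CHEMO FO libraries. Levels are given as CPM, counts scaled to a fixed total, on TMM-adjusted library sizes. The Gadd45 paralogues rested on 20 to 852 counts per sample and Gadd45gip1 on 176 to 1366, so the paralogues were the less precisely measured. Skeletal muscle markers were abundant in every sample (the 5 of 8 listed markers with a row summed to 114246 to 223480 CPM). 3 libraries that stood apart were each left out in turn for the listed genes, and they were not the only ones. Among CHEMO FO samples other than replicate 18, keratinocyte markers reached 115 CPM (group median 4.05) and adipocyte markers 426 CPM (group median 128). CHEMO FO replicate 18 had the lowest skeletal muscle sum and the highest macrophage marker sum (801 CPM, group median 331), TUMOUR STD replicate 10 held keratinocyte markers at 541 CPM against a group median of 6.78, and CHEMO STD replicate 7 held B cell markers at 64.1 CPM against 1.35. The macrophage markers of CHEMO FO replicate 18 did not all rise, as given below. In bulk muscle, fewer cells of a type and less RNA per cell cannot be told apart.

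Gadd45g, the cytokine-response member, was higher in muscle from both chemotherapy arms than from animals with a tumour alone. In TUMOUR STD it stood at 8.34, 9.55, 3.79, 10.5 and 5.15 CPM in replicates 8 to 12 (7.47 ± 2.89, SD, n = 5). In CHEMO STD the lowest sample was at 8.90 CPM, the median at 20.01 and the highest, the sum of replicates 1 and 2, at 31.5 (20.3 ± 8.95, SD, n = 6). In CHEMO FO it ran from 9.77 to 74.6 CPM with a median of 20.7 (31.8 ± 25.3, SD, n = 8). The groups overlapped: 5 of 6 CHEMO STD samples and 7 of 8 CHEMO FO samples lay above the highest TUMOUR STD sample, and the exceptions were CHEMO STD replicate 5 and CHEMO FO replicate 16. The family was chosen on these values, so these counts are a description. The share of all genes with a like separation was not computed.

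The fitted log2 fold change of Gadd45g was 1.48 (SE 0.479), or 2.80-fold, for CHEMO STD against TUMOUR STD and 2.13 (SE 0.467), or 4.37-fold, for CHEMO FO against TUMOUR STD. Both comparisons share the TUMOUR STD samples. Without CHEMO FO replicate 18 the values were 1.502 (SE 0.427) and 1.83 (SE 0.421), and without TUMOUR STD replicate 10, which had the lowest Gadd45g of its group, they were 1.30 (SE 0.508) and 1.95 (SE 0.499). In the same comparisons the listed smooth muscle markers were lower, with summed levels of 204 to 284 CPM in TUMOUR STD, 102 to 186 in CHEMO STD and 69.6 to 208 in CHEMO FO, and their part in the Gadd45g difference was not tested.

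The diet comparison, CHEMO FO against CHEMO STD, played no part in the choice of the family. The medians of Gadd45g in these arms, 20.01 and 20.7 CPM, were nearly alike, and the higher mean of CHEMO FO came with 2 samples, replicate 17 at 67.1 CPM and replicate 18 at 74.6 CPM, whereas the other 6 lay between 9.77 and 33.4 CPM. The difference did not pass the test (log2 fold change 0.64, SE 0.402, edgeR quasi-likelihood adjusted p = 0.974). An exact two-sided permutation test of the mean log2 CPM over 3003 arrangements gave a difference of 0.41 (SE 0.473, n = 8 and 6, p = 0.428). Without replicate 18 the fitted difference was 0.33 (SE 0.366, edgeR adjusted p = 0.908). Differences within these errors were not detectable with these samples.

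**Figure D1:**
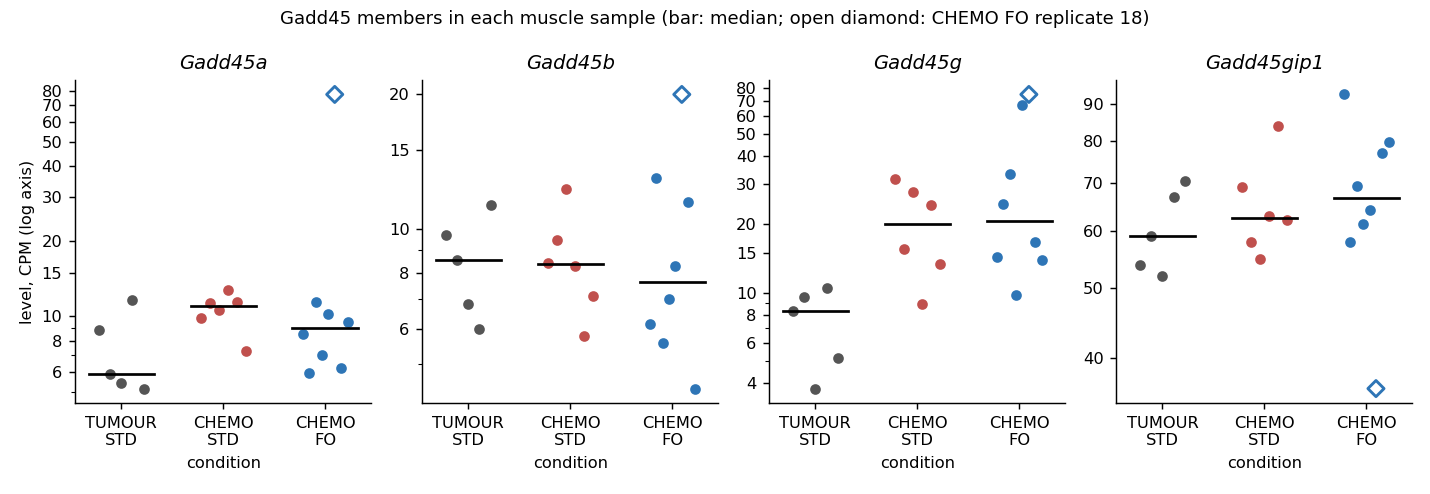
Level of each Gadd45 member in CPM (vertical log axes, 1 scale per panel) in every sample of the 3 conditions; horizontal bars are medians and the open diamond is CHEMO FO replicate 18. Gadd45g medians were 8.34, 20.01 and 20.7 CPM in TUMOUR STD, CHEMO STD and CHEMO FO, and replicate 18 was the highest of its group for the 3 paralogues and the lowest for Gadd45gip1.

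Gadd45a, the member known from DNA damage and muscle atrophy, showed no like difference once 1 sample was set aside. In TUMOUR STD it stood at 8.86, 5.87, 5.44, 11.6 and 5.15 CPM in replicates 8 to 12 (7.39 ± 2.80, SD, n = 5). CHEMO STD samples ran from 7.28 to 12.7 CPM with a median of 11.0 (10.5 ± 1.85, SD, n = 6). CHEMO FO samples ran from 5.94 to 77.4 CPM with a median of 8.99 (17.03 ± 24.5, SD, n = 8). The highest value, 77.4 CPM from 852 counts, was CHEMO FO replicate 18, and the next highest sample of that group was at 11.4 CPM, below the highest TUMOUR STD sample.

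With all samples, Gadd45a was called higher in CHEMO FO than in TUMOUR STD (log2 fold change 1.29, SE 0.527, edgeR unadjusted p = 0.0226, adjusted p = 0.516). Without replicate 18 the value was 0.22 (SE 0.221, adjusted p = 0.798), and the call was also lost when TUMOUR STD replicate 9, 10 or 12 was left out, at log2 fold changes of 1.21, 1.19 and 1.20. For CHEMO STD against TUMOUR STD the log2 fold change was 0.51 (SE 0.558, adjusted p = 0.816), not called. It was nearly the same, 0.52, without replicate 18, with a smaller error (SE 0.224, edgeR unadjusted p = 0.0300, adjusted p = 0.550) but under 1.5-fold. The diet comparison changed direction with that sample, from 0.78 (SE 0.486, adjusted p = 0.974) with it to -0.30 (SE 0.209, adjusted p = 0.889) without it, and the exact permutation test gave 0.07 (SE 0.430, n = 8 and 6, p = 0.977).

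Gadd45b, the member induced by inflammatory and growth factor signals, did not differ between conditions beyond its spread. Its level was 8.48 ± 2.17 CPM in TUMOUR STD (SD, n = 5, range 5.99 to 11.4), 8.56 ± 2.23 in CHEMO STD (SD, n = 6, range 5.79 to 12.3) and 9.49 ± 5.17 in CHEMO FO (SD, n = 8, range 4.41 to 19.99, highest in replicate 18). The ranges overlapped throughout. The log2 fold changes were 0.03 (SE 0.311) for CHEMO STD and 0.20 (SE 0.293) for CHEMO FO against TUMOUR STD and 0.17 (SE 0.281) between the diets, with edgeR adjusted p values of 0.983, 0.857 and 0.980. The exact permutation test of the diets gave 0.03 (SE 0.287, n = 8 and 6, p = 0.938).

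Gadd45gip1, the mitochondrial ribosomal protein, was the least variable of the 4 members in each group. It stood at 60.5 ± 8.05 CPM in TUMOUR STD (SD, n = 5, range 52.0 to 70.4), 65.1 ± 10.3 in CHEMO STD (SD, n = 6, range 54.9 to 83.8) and 67.3 ± 16.9 in CHEMO FO (SD, n = 8, range 36.3 to 92.8, lowest in replicate 18). Its coefficient of variation within groups was 13.3% to 25.1%, against 17.6% to 144% in Gadd45a, 25.6% to 54.4% in Gadd45b and 38.6% to 79.4% in Gadd45g. In CHEMO STD the gap to Gadd45a was small, 15.9% against 17.6%. The paralogues rested on fewer counts, where counting noise is larger relative to the level, so this ranking does not describe the genes alone. The log2 fold changes were 0.11 (SE 0.176), 0.15 (SE 0.166) and, between the diets, 0.05 (SE 0.158), with edgeR adjusted p values of 0.882, 0.795 and 0.994, and the exact permutation test of the diets gave 0.02 (SE 0.168, n = 8 and 6, p = 0.935). Levels were not compared between members, since no transcript lengths were used.

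**Figure D2:**
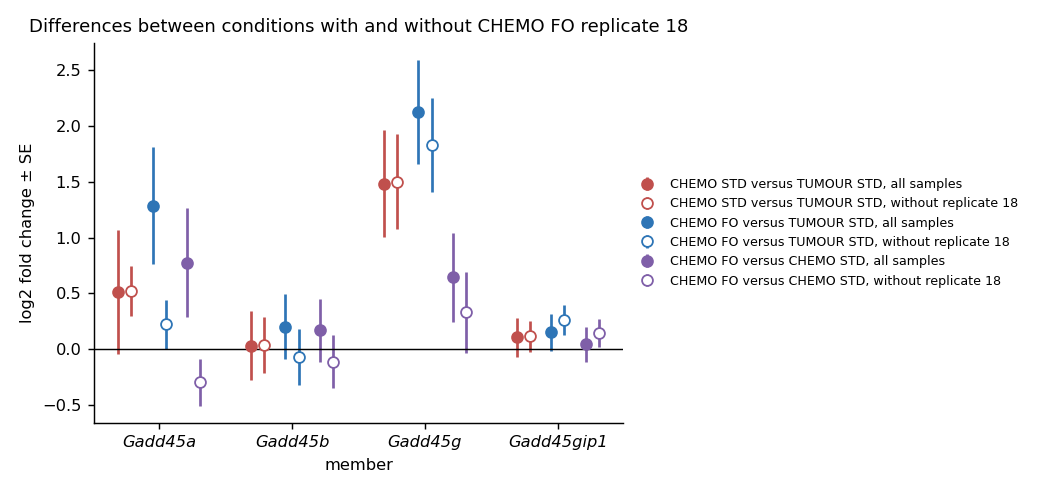
Fitted log2 fold change with its standard error for each member in the 3 comparisons, with all 19 samples (filled) and without CHEMO FO replicate 18 (open). Gadd45a against TUMOUR STD in CHEMO FO went from 1.29 to 0.22, while Gadd45g went from 2.13 to 1.83.

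Across all genes, 279 of 11716 (2.38%) were called for CHEMO STD against TUMOUR STD, 422 (3.6%) for CHEMO FO against TUMOUR STD and 195 (1.66%) between the diets. Gadd45g is left out of the member counts against TUMOUR STD, since the family was chosen on those values. Of the remaining members, none was called in the first comparison and only Gadd45a in the second. Between the diets none of the 4 members was called. With edgeR no gene passed an adjusted p of 0.05 in any comparison, where 762, 1059 and 528 genes had an unadjusted p below 0.05. DESeq2 found 0, 11 and 0 genes past the adjusted threshold and limma voom found 0, 0 and 0. The study counts its groups in animals, and the labels themselves do not tie each library to a rat, so the p values are those of the spread between samples.

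Whether the members varied together within a condition was asked by correlating log2 CPM over the 19 samples after removing the group means. Of 6 pairs, Gadd45a and Gadd45g varied together (Pearson r = 0.592, permutation p = 0.0101, adjusted 0.0302, Spearman rho = 0.488, p = 0.0362, adjusted 0.109). Without the 2 samples farthest on the Gadd45a axis, TUMOUR STD replicate 11 and CHEMO FO replicate 18, r was 0.359 (permutation p = 0.144), so the relation rested on them. It was -0.08 among the 6 CHEMO STD samples and 0.681 among the 8 CHEMO FO samples. Gadd45b and Gadd45gip1 moved in opposite directions (r = -0.683, permutation p = 0.00787, adjusted 0.0302, rho = -0.553, p = 0.0260, adjusted 0.109). That relation was -0.858 within CHEMO STD and -0.771 within CHEMO FO, and -0.405 (permutation p = 0.135) without CHEMO FO replicates 18 and 20. For the other 4 pairs, permutation p values of r were 0.0918 to 0.233 and adjusted values 0.184 to 0.233.

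**Figure D3:**
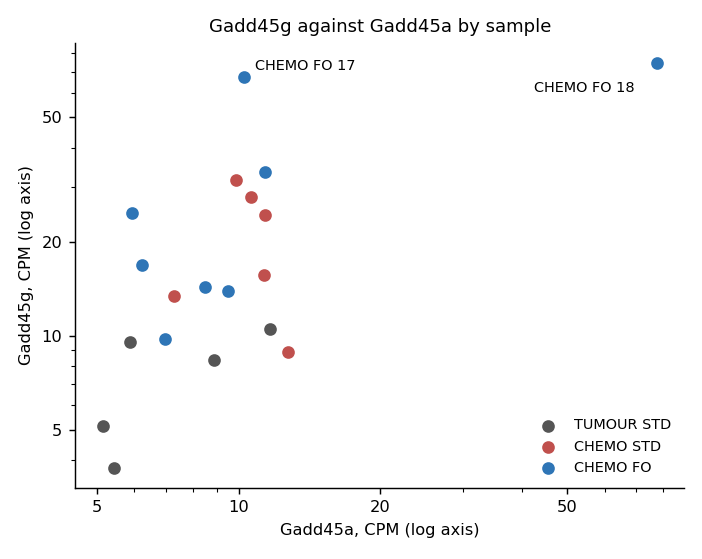
Gadd45g against Gadd45a, both in CPM on log axes, 1 point per sample, coloured by condition. CHEMO FO replicates 17 and 18 had like Gadd45g levels (67.1 and 74.6 CPM) but Gadd45a levels of 10.3 and 77.4 CPM.

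The genes whose levels most resembled those of each member were ranked by Pearson r of the same residuals over 19 samples, as a description. For Gadd45g these were Asb4, a substrate adaptor of ubiquitin ligases (r = 0.834), Sesn1, a p53-induced sestrin that restrains growth signalling (0.824), Spty2d1 (0.823), the tumour suppressor Rassf1 (0.809) and Zfand5, a zinc-finger protein that activates the proteasome (0.800). Asb4 and Sesn1 stayed among the first 5 without CHEMO FO replicate 18, at 0.775 each. For Gadd45a they were the chaperones Dnaja1 (0.923) and Hsp90aa1 (0.916), the thioredoxin reductase Txnrd1 (0.921), Ubxn4 (0.917) and Ftsj3 (0.916), and none of these 5 stayed among the first 5 without that sample. For Gadd45b they included the retinoic acid enzyme Aldh1a2, the histone demethylase Kdm1a, Nub1 and the integrin chain Itgam, at 0.758 to 0.803, and these 4 were not among the first 5 without replicate 18. For Gadd45gip1 the first 5 lay between 0.881 and 0.897, namely the unnamed loci AABR07039304.1 and AABR07022113.1, Fam89b, Cops7a and Pigq. Fam89b (0.802) and AABR07022113.1 (0.776) stayed among the first 5 without replicate 18.

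CHEMO FO replicate 18 was set beside the other 7 samples of its group, by genes chosen after their values were seen. It held 123 of 11715 tested genes (1.05%) at 4 or more times the median of the other 7, a count that was not made for any other library. Gadd45a, at 9.12 times, was among them. So were the metallothionein Mt2A (727 CPM against a median of 2.93), the muscle stress protein Ankrd1 (348 against 16.7), the atrophy ubiquitin ligases Trim63 (2589 against 226) and Fbxo32 (1865 against 259), the cell cycle inhibitor Cdkn1a (183 against 20.5) and the macrophage scavenger receptor Cd163 (273 against 34.8). Gadd45g stood at 4.44 times, and replicate 17 reached nearly the same level (67.1 against 74.6 CPM). Gadd45b stood at 2.86 times and Gadd45gip1 at 0.523 times the median. Macrophage, skeletal muscle and smooth muscle sums also differed in that sample, and their part was not tested. The macrophage markers did not move alike. Cd163, C1qb and Mrc1 stood at 7.84, 3.32 and 3.16 times the median. Lyz2 stood at 1.00, Csf1r at 0.981 and Adgre1 at 0.663 times, and the remaining macrophage markers lay between.

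**Figure D4:**
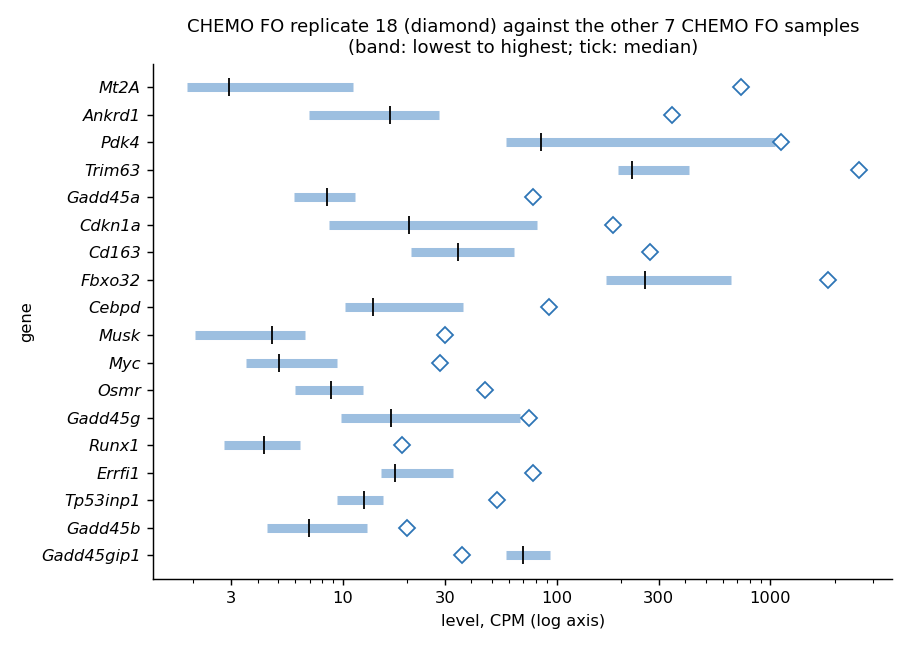
Level in CPM (log axis) in CHEMO FO replicate 18 (diamonds) against the lowest, median and highest of the other 7 CHEMO FO samples (bands and ticks), for the 4 members and the listed genes at 4 or more times the median, which were chosen after their values were seen. Gadd45a lay at 77.4 CPM against 5.94 to 11.4, while Gadd45g lay at 74.6 against 9.77 to 67.1.

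The genes around the family were followed in 8 lists. No listed gene passed an adjusted p of 0.05 by edgeR, the smallest being 0.719 for CHEMO STD and 0.486 for CHEMO FO against TUMOUR STD and 0.974 between the diets, so the calls that follow are at an unadjusted p below 0.05 and 1.5-fold. Of all genes, 2.38% and 3.6% were called for CHEMO STD and CHEMO FO against TUMOUR STD and 1.66% between the diets. At these shares, no call in any of these short lists says little. Medians over all genes were 0.00 log2 in the comparisons with TUMOUR STD and -0.01 between the diets. Of the p38 and JNK pathway genes (the kinases from Map3k4 down and the factors Jun and Atf2), 0 of 13 tested were called in any comparison, and the list medians were -0.07, 0.01 and 0.08. Jun, an AP-1 factor that JNK phosphorylates, had the lowest value of the list in CHEMO STD against TUMOUR STD (log2 fold change -0.49, SE 0.172, edgeR unadjusted p = 0.00854, adjusted p = 0.719), short of 1.5-fold. Map3k4, the kinase that Gadd45 proteins bind, stood at 58.4 ± 5.13, 48.4 ± 5.49 and 55.7 ± 12.0 CPM (SD, n = 5, 6 and 8).

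Among 10 tested partners in the cell cycle and repair, none was called for CHEMO STD against TUMOUR STD and only Cdkn1a in the other 2 comparisons, with log2 fold changes of 1.37 (SE 0.598) and 1.57 (SE 0.568). Neither call held without CHEMO FO replicate 18, at 0.56 and 0.74. Pcna differed by 0.14 (SE 0.228) and 0.36 (SE 0.215) in the chemotherapy arms against TUMOUR STD, not called. Of 21 tested p53 damage targets, none was called in either arm against TUMOUR STD, with list medians of -0.05 and 0.05. As 2.38% and 3.6% of all genes were called there, this does not set the list apart from other genes. Cdkn1a and Gadd45a were counted apart from this list. Both were called higher in CHEMO FO than in TUMOUR STD with all samples, and neither was without CHEMO FO replicate 18. Mdm2, the p53-induced ligase that degrades p53, stood at 76.4 ± 7.14, 73.4 ± 6.04 and 79.1 ± 11.1 CPM (SD, n = 5, 6 and 8). Without TUMOUR STD replicate 10, Polk, a repair polymerase, was called lower in CHEMO STD (-0.60). Between the diets 1 target, Tp53inp1, was called (0.71, SE 0.330), and it was not called without CHEMO FO replicate 18 (0.18) or CHEMO STD replicate 7 (0.69).

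Of 19 tested upstream regulators of Gadd45 genes, Egr1, an immediate early factor, was lower after chemotherapy on the standard diet (CHEMO STD against TUMOUR STD, log2 fold change -0.98, SE 0.274). Myc (1.31, SE 0.443) and Cebpb, a C/EBP factor (0.74, SE 0.319), were higher in CHEMO FO than in TUMOUR STD. Without replicate 18, Myc remained called at 0.69 and Cebpb was not, at 0.53, and Myc was then also called in CHEMO STD against TUMOUR STD, at 0.67 (0.66 with all samples, not called). Foxo1, a factor that drives atrophy genes, was the only call between the diets (0.59, SE 0.248) and was not called without that sample (0.31). Nor was it without CHEMO STD replicate 7 (0.57), where Egr1 was called instead (0.59). Atf4, which drives Gadd45a in fasted muscle, stood at 271 ± 36.3, 257 ± 19.3 and 345 ± 152 CPM and Hdac4, which drives it after denervation, at 39.9 ± 9.01, 30.2 ± 5.62 and 35.7 ± 8.37 CPM (SD, n = 5, 6 and 8), neither of them called.

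In the cytokine and STAT response list of 22 tested genes, Cish, a feedback inhibitor induced by STAT5, was called in both arms. It stood at 10.3 ± 7.42 CPM in TUMOUR STD, 34.2 ± 23.0 in CHEMO STD and 33.4 ± 21.2 in CHEMO FO (SD, n = 5, 6 and 8), with log2 fold changes of 1.73 (SE 0.587) and 1.66 (SE 0.567) against the shared TUMOUR STD samples. The Cish ranges of all 3 groups overlapped, and CHEMO FO replicate 18, where Gadd45g was highest, held the lowest Cish of its group, 5.36 CPM. Pim1 (0.62, SE 0.268) and Socs3 (0.72, SE 0.328), both also induced by STAT factors, were higher in CHEMO FO than in TUMOUR STD, of which Pim1 was still called without replicate 18 (0.59) and Socs3 was not (0.48). Pim1 was not called without TUMOUR STD replicate 10 (0.55). None of the 22 was called between the diets. Without CHEMO STD replicate 7, Junb was called higher (0.70) and Socs2 lower (-0.63) in CHEMO FO than in CHEMO STD. Without replicate 18, Il2rg, the common cytokine receptor chain, was called lower in CHEMO FO than in CHEMO STD (-1.16), a comparison in which CHEMO STD replicate 7 held high lymphocyte markers.

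Of 14 tested denervation and atrophy genes, none was called for CHEMO STD against TUMOUR STD, and Fbxo32 (log2 fold change 1.27, SE 0.466), Trim63 (1.26, SE 0.528) and Mt2A (5.49, SE 1.54) were higher in CHEMO FO than in TUMOUR STD. Between the diets these 3 and Ankrd1 (1.99, SE 0.770) were called. Without CHEMO FO replicate 18 the calls came down to Fbxo32 (0.65) against TUMOUR STD and to none between the diets. Without CHEMO STD replicate 7, Fbxo32 was not called between the diets (0.86). Myog, the myogenic factor that rises in denervated muscle, stood at 15.9 ± 3.15, 14.5 ± 3.14 and 20.3 ± 10.4 CPM (SD, n = 5, 6 and 8), not called.

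The glucocorticoid response list had 15 tested genes. Dusp1, a phosphatase that switches off p38 and JNK, fell in CHEMO STD against TUMOUR STD (log2 fold change -0.88, SE 0.215), at 51.4 ± 11.9 against 94.9 ± 26.4 CPM (SD, n = 6 and 5). Higher in CHEMO FO than in TUMOUR STD were Pdk4, a kinase that spares glucose (1.89, SE 0.731), Cebpd, a C/EBP factor (1.595, SE 0.527), Zbtb16 (0.85, SE 0.262), Errfi1 (0.77, SE 0.335) and Tsc22d3 (0.74, SE 0.271). Pdk4, Cebpd and Zbtb16 were still called without replicate 18, at 1.36, 0.99 and 0.78, and Cebpd was then also called in CHEMO STD against TUMOUR STD, at 0.98 (0.96 with all samples, not called). Without TUMOUR STD replicate 10 the calls in CHEMO FO against TUMOUR STD numbered 8, with Fkbp5, Glul and Ddit4 added. Between the diets Glul, Errfi1 and Dusp1 were called higher in CHEMO FO (0.72, 0.68 and 0.59), and none without that sample, although Dusp1 stood at 0.58, just under 1.5-fold, as it did without TUMOUR STD replicate 10. Errfi1 was also not called without CHEMO STD replicate 7. Of 14 tested partners of Gadd45gip1 (mitochondrial ribosomal proteins, factors that work with them and the nuclear receptor Nr4a1), none was called in any comparison, with list medians of 0.15, 0.11 and 0.04. Nr4a1 gave the extreme values of the list, -0.52 (SE 0.311) in CHEMO STD against TUMOUR STD and 0.44 (SE 0.283) between the diets.

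**Figure D5:**
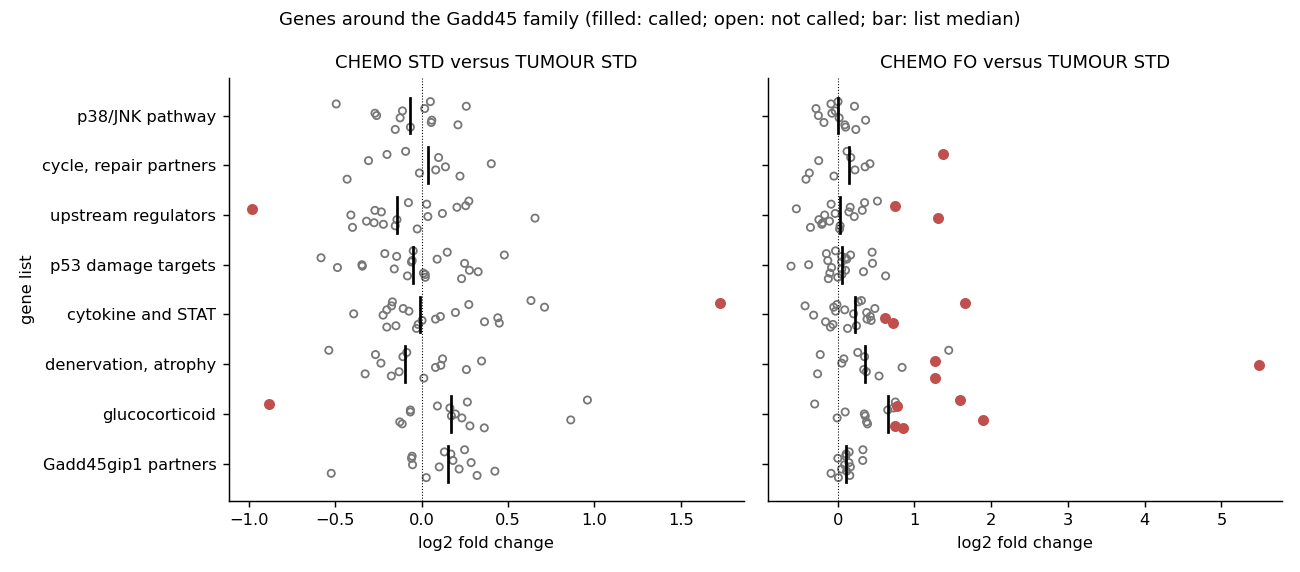
Fitted log2 fold change of each tested gene of the 8 lists for CHEMO STD and CHEMO FO against the shared TUMOUR STD samples, each panel with its own horizontal scale; filled points were called at an unadjusted p below 0.05 and 1.5-fold, bars are list medians. Cish was called in both panels, and the point at 5.49 is Mt2A, which CHEMO FO replicate 18 decided.

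Markers of other cell types were listed as well. With 2.38%, 3.6% and 1.66% of all genes called in the 3 comparisons, no call among so few markers says little. Called genes numbered 0 of 5 tested for skeletal muscle, 0 of 6 for endothelium and 0 of 6 for adipocytes in all 3 comparisons. Of 5 smooth muscle markers, 3 and 4 were called lower in the standard and fish oil chemotherapy arms than in TUMOUR STD and none between the diets. Without CHEMO FO replicate 18 the 4 became 2, Myh11 and Acta2. Of 6 Schwann cell markers, 0, 2 and 4 were called lower in the same order, and the 2 became 0 without CHEMO FO replicate 18 or TUMOUR STD replicate 10 and 1 without CHEMO STD replicate 7, where the 4 became 2. Of 11 macrophage markers, Lyz2 was called higher for CHEMO STD against TUMOUR STD and lower in CHEMO FO than in CHEMO STD, neither of them without CHEMO STD replicate 7. Cd163 was called higher in CHEMO FO than in TUMOUR STD, and not without CHEMO FO replicate 18, while C1qb was called with it without TUMOUR STD replicate 10. Of 2 tested T and NK cell markers, Klrd1 was called lower between the diets, and without TUMOUR STD replicate 10 also in CHEMO FO against TUMOUR STD. The only tested keratinocyte marker, Dsp, was called lower in both arms, and in neither without TUMOUR STD replicate 10. No B cell or neutrophil marker passed the filter.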

How the data were processed

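Gastrocnemius RNA of 20 libraries in 3 conditions was sequenced by the authors as rRNA-depleted, stranded total RNA. Per the labels and the study's methods, they used CASAVA 1.9, Trim Galore 0.4.1, FastQC 0.11.4, TopHat2 2.0.10 with Bowtie2 and Partek Flow, and deposited raw integer counts per gene. How strand and reads matching several genes were counted is not given in the sources used here. The 388 rows without a gene name (0.102% to 0.272% of a library) were left out.

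Counts of CHEMO STD replicates 1 and 2 were summed, and 19 samples were fitted together in R 4.3.3 with the quasi-likelihood test of edgeR 4.0.16 (default filter, minimum count 10, minimum total 15, TMM). Calls required an unadjusted p below 0.05 and at least 1.5-fold, and adjusted p values of this fit are Benjamini-Hochberg over 11716 genes. A fit without a library was adjusted over its own tested genes, 11583 without CHEMO FO replicate 18. The p values of the correlations were adjusted over the 6 pairs. The SE of a fitted value is the log2 fold change divided by the root of F. The SE beside a permutation test comes from the variances of both groups. Printed CPM are counts over TMM-adjusted library sizes, without a prior count. The permutation tests, the correlations and the ranking of genes most like each member used log2 CPM with a prior count of 2. The correlations used 100000 permutations within groups. The code was tested on simulated data. The members and the lists were chosen with earlier results of these data known. Named genes were the members, up to 6 called genes per list and comparison with the smallest p, the 5 genes most like each member, and the lists' Map3k4, Cdkn1a, Mdm2, Atf4, Hdac4, Myog, Cish and Socs3; other genes named were chosen after their values were seen. Alternatives were other scalings and filters, DESeq2 1.42.0, limma 3.58.1 voom, other thresholds, 2 groups alone, replicates 1 and 2 kept separate or left out, and each library left out in turn. Values of 2 genes are not reported here.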

Additional observations from a re-analysis of the deposited data

Results flagged for a closer look

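Gadd45a in CHEMO FO replicate 18 lay at 77.4 CPM, far from the other 7 samples of its group, which lay at 5.94 to 11.4 CPM. The gap to the nearest of them was 0.924 of the whole range, above Dixon's 95% critical value of 0.526 for 8 samples. The highest and lowest samples of 12 gene and group combinations were examined in this way, of which chance flags about 1 in 20. The same library held the highest Gadd45b (19.99 CPM) and the lowest Gadd45gip1 (36.3 CPM) of its group, neither of which passed the limit.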

How the results depend on the processing

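No paired analysis was possible because no replicate number is shared between the conditions. Gadd45g lay at 1.25 to 1.63 and 1.48 to 2.28 (log2) against TUMOUR STD in CHEMO STD and CHEMO FO over the alternatives run. The family was chosen on these values, so their steady direction is a description and no support for the difference. Between the diets Gadd45g lay at 0.23 to 0.82. Gadd45a changed direction between the diets under some alternatives. In CHEMO FO against TUMOUR STD it was 0.24 with DESeq2 (0.21 with only the 2 groups), which replaces outlying counts in large groups, and 0.27 with limma voom with sample weights, and between the diets -0.28, -0.26 and -0.24. Gadd45b was -0.0759 and -0.187 in the same comparisons with voom. The numbers of genes called (279, 422 and 195) became 971, 1116 and 722 without a filter, 762, 1059 and 528 without a fold threshold, 64, 112 and 58 at 2-fold and 0, 0 and 0 at an adjusted p of 0.05. Without CHEMO STD replicates 1 and 2, 603 genes were called for CHEMO STD against TUMOUR STD.

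Leaving out each library in turn gave 161 to 530, 273 to 584 and 153 to 234 genes called, the first 161 without TUMOUR STD replicate 10 and 530 without TUMOUR STD replicate 8, and 273 without CHEMO FO replicate 18. Gadd45a ranged from 0.22 to 1.51 in CHEMO FO against TUMOUR STD and from -0.30 to 0.91 between the diets. Gadd45b ranged from -0.12 to 0.15, -0.0699 to 0.33 and -0.11 to 0.31 in the 3 comparisons, and Gadd45gip1 from -0.0300 to 0.14 between the diets. The differences of the exact permutation test ranged from -0.33 to 0.19 for Gadd45a, -0.15 to 0.15 for Gadd45b and -0.0554 to 0.14 for Gadd45gip1. Without CHEMO FO replicate 18 the correlation of Gadd45a and Gadd45b turned from 0.386 to -0.455 and that of Gadd45a and Gadd45gip1 from -0.608 to 0.161, and without the 2 farthest samples that of Gadd45a and Gadd45b was -0.20. The causes of these changes were not tested. Counts of 20 to 100 for the paralogues in most samples limit how small a difference could be seen.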
